A study of Macaca mulatta with 81 samples.

Results

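Blood T cells of rhesus macaques that received an allogeneic hematopoietic cell transplant with tacrolimus and methotrexate were compared with those of recipients given no prophylaxis against graft-versus-host disease, in the final sample of each animal. The arrays were chosen by title: 3 end in Tac.Mtx.F (animals 19, 20 and 21, prophylaxis labelled Tac-Mtx, read here as tacrolimus with methotrexate) and 4 end in NoRx.F (animals 50, 51, 52 and 53, prophylaxis labelled None), so that 7 of the 81 arrays of the series are compared. Both groups had an allogeneic donor, and the labels give "Final" in place of a day for both. The time from transplant to the final sample is thus not known, and it cannot be told apart from the prophylaxis. The other arrays used are 34 of untransplanted Healthy.Control samples, 5 from earlier days of the Tac.Mtx animals (Tac.Mtx.D14, n = 3, and Tac.Mtx.D30, n = 2), and the final samples of recipients labelled Bela.F (n = 3) and Siro.F (n = 4). The remaining groups entered the fit and are named by their labels. Some Healthy.Control arrays carry a recipient's animal number, among them 53 of NoRx.F, 47 of Bela.F, and 13, 16 and 18 of Siro.F. The main fit did not use this link. T cells were sorted on CD3 from peripheral blood, and within a group each array is of a different animal. Labelled RNA was hybridised to Affymetrix 3' expression arrays, and all signals below are log2 values as deposited.

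In a T cell, engagement of the antigen receptor raises calcium, calcium activates the phosphatase calcineurin, and calcineurin moves NFAT transcription factors into the nucleus, where they act with AP-1 (dimers of FOS and JUN family proteins) on cytokine genes. Tacrolimus binds the immunophilin FKBP12, the product of FKBP1A, and the complex blocks calcineurin. Methotrexate is a folate analogue that limits thymidylate and purine synthesis in dividing cells. In graft-versus-host disease, donor T cells that recognise the host divide and become effector cells. Gene roles below are those known from the human and mouse genes.

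The 3 Tac.Mtx.F arrays carried the batch label 3, as did 13 healthy controls. The NoRx.F arrays carried the batch label 1 (3 arrays, with 5 healthy controls) or 2 (animal 53, with 10 healthy controls). The 2 groups share no batch, so the batch label could be separated from the group only through the healthy controls. In an F test of those controls between batches, 62.14% of genes had a p above 0.95, against the 5% that batches without any difference would give, so the values had been adjusted for batch before deposit, by a method that is not given in the sources used here. What remains of the batch and the group cannot be told apart. The 3' minus 5' signal of actin control probe sets, a measure of RNA integrity, was 0.602 to 1.394 in Tac.Mtx.F and 0.611 to 1.137 in NoRx.F, so the groups overlapped. Array medians ran from 5.12 to 5.31 over the series, and the small number of arrays limits the precision.

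Of 11806 genes tested, 820 (6.95%) passed a Benjamini-Hochberg adjusted p of 0.05 in limma's moderated test, 555 higher in Tac.Mtx.F (4.70%) and 265 lower (2.24%). The median log2 difference over all genes tested was -0.016. By at least 2-fold, 189 genes were higher and 77 lower. Of the 820 genes, 761 had no overlap between the Tac.Mtx.F and NoRx.F arrays, 521 higher and 240 lower; over all genes tested 22.3% did not overlap (12.5% higher and 9.81% lower). With quantile normalization repeated on the deposited values, 931 genes passed and the split became 477 higher and 454 lower. Without the batch term 1793 passed, and without the array of Tac.Mtx.F animal 19 the number was 432. Of 70 called genes examined singly, 23 were not called with the mean of a gene's probe sets, where 554 genes passed in all. Among the 23, SOCS2, PIM1 and PPP3CC have 1 probe set each, so their own values did not change.

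The transcription factor gene FOS had the largest difference of the genes named here. Its signal was 13.29, 12.58 and 11.19 in Tac.Mtx.F animals 19, 20 and 21, against 7.61, 6.57, 7.30 and 7.61 in NoRx.F animals 50, 51, 52 and 53, the order in which array values are given throughout. All 3 Tac.Mtx.F arrays lay far above all 4 NoRx.F arrays, with animal 19 the highest. The log2 difference was 5.07 ± 1.41 (SE), 33.6-fold, with an adjusted p of 0.0162 in limma. In healthy controls FOS varied widely, with 5.78 as the lowest signal, 8.34 as the median and 13.40 as the highest. Without animal 19 the FOS difference was 4.60 with an adjusted p of 0.0804.

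JUNB, an AP-1 partner of FOS, had a signal of 10.02, 9.25 and 9.67 in Tac.Mtx.F, against 7.61, 6.72, 7.12 and 7.23 in NoRx.F. The groups were well apart and each was narrow. The log2 difference was 2.47 ± 0.45 (5.56-fold, adjusted p 0.000172 in limma), and it passed under each of the 16 alternatives tried. Healthy controls ran from 7.55 to 9.91 with a median of 8.74.

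RGS1, a regulator of G protein signalling that dampens chemokine receptors, gave 12.83, 10.99 and 10.80 in Tac.Mtx.F, against 9.78, 7.84, 8.52 and 8.28 in NoRx.F. Animal 19 again stood highest, and the lowest Tac.Mtx.F array was above the highest NoRx.F array. RGS1 differed by 2.95 ± 0.72 (7.72-fold, adjusted p 0.00583 in limma), and 2.30 without animal 19, with an adjusted p of 0.0778. Of the 13 members of the RGS family tested, RGS1 alone passed (7.7%, where 4.70% of all genes tested rose). The median of the family was -0.076. RGS2 differed by 1.02 ± 0.61 (adjusted p 0.341 in limma).

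ACKR1, a scavenging chemokine receptor known as the Duffy antigen of red cells, went the other way. Its signal was 4.95, 6.26 and 6.15 in Tac.Mtx.F, against 7.66, 8.91, 8.11 and 8.81 in NoRx.F, and every Tac.Mtx.F array was also below the lowest healthy control (6.31). ACKR1 differed by -2.60 ± 0.50, 6.07-fold lower in Tac.Mtx.F, with an adjusted p of 0.000408 in limma. A second, dimmer probe set of ACKR1 did not show it: its means were 5.33 in Tac.Mtx.F and 5.32 in NoRx.F, and with the mean of both the log2 difference of ACKR1 was -1.29, still past the threshold. Of 13 erythroid marker genes tested, ACKR1 alone passed (7.7%, where 2.24% of all genes tested fell). The list mean per array overlapped, at 6.02 to 6.94 in Tac.Mtx.F and 6.36 to 6.60 in NoRx.F. ALAS2, the first enzyme of erythroid heme synthesis, differed by 1.05 ± 0.61 (adjusted p 0.322 in limma).

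**Figure D1:**
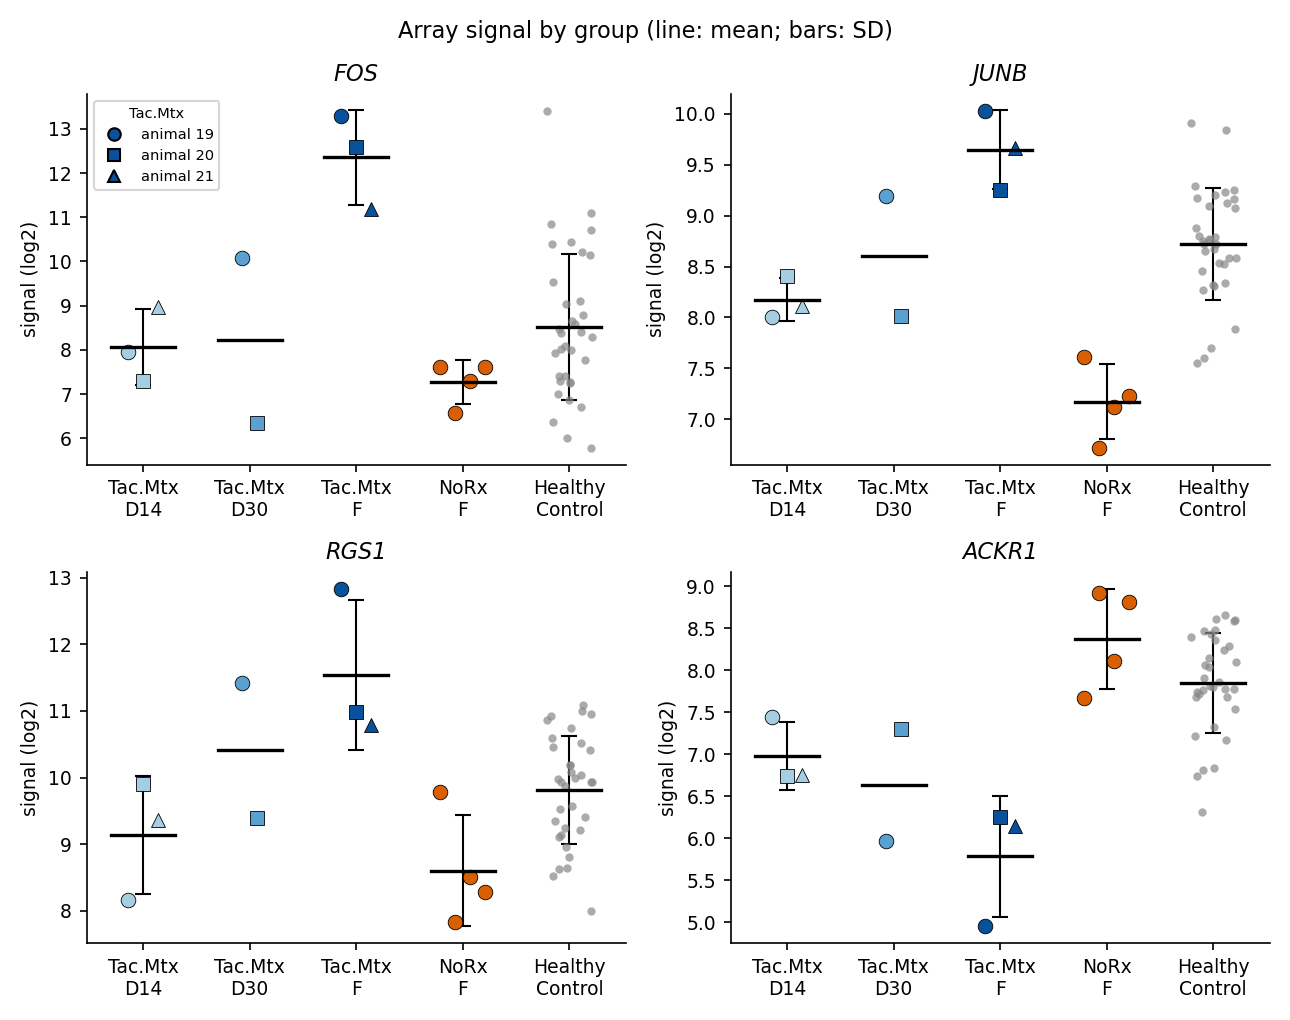
Array signal (log2) of FOS, JUNB, RGS1 and ACKR1 in the Tac.Mtx animals at D14, D30 and the final sample, in NoRx.F and in healthy controls. Points are arrays, symbols mark the 3 Tac.Mtx animals, lines are group means and bars are SD (none for the 2 Tac.Mtx.D30 arrays); all Tac.Mtx.F arrays lie above all NoRx.F arrays for FOS, JUNB and RGS1 and below them for ACKR1.

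Immediate early genes are induced by many stimuli within minutes, without new protein synthesis. Of 27 tested, 9 rose and none fell (4.70% and 2.24% of all genes tested did), and the list median was 0.626 against -0.016 for all genes. Besides FOS and JUNB these were DUSP1, CD69, GADD45B, TSC22D3, ZFP36L2, IER2 and KLF6. DUSP1, TSC22D3 and ZFP36L2 are also on the list of glucocorticoid-induced genes below, so the counts of these lists are not independent. Of the members outside these 9, NR4A2 differed by 1.78 ± 0.96 (adjusted p 0.278 in limma), JUND by 0.63 ± 0.24 (adjusted p 0.104) and ATF3 by -0.10 ± 0.17 (adjusted p 0.793). The count was 2 without Tac.Mtx.F animal 19 and 5 without NoRx.F animal 51.

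DUSP1, a phosphatase that switches off MAP kinases, had a signal of 13.50, 12.31 and 11.70 in Tac.Mtx.F, against 9.65, 8.30, 9.39 and 9.67 in NoRx.F. No array of one group reached the other. DUSP1 differed by 3.20 ± 0.83 (9.21-fold, adjusted p 0.00926 in limma), and 2.71 without animal 19, with an adjusted p of 0.0775. CD69, an early surface marker of T cell activation and tissue retention, gave 12.98, 12.61 and 12.21 in Tac.Mtx.F, against 11.34, 10.06, 10.18 and 10.43 in NoRx.F. Its log2 difference of 2.10 ± 0.52 (adjusted p 0.00721 in limma) passed under each of the 16 alternatives.

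Among the other risers of this list, GADD45B, a stress-induced regulator of growth arrest, differed by 1.64 ± 0.47 (adjusted p 0.0198 in limma). The signal of TSC22D3, which encodes the glucocorticoid-induced leucine zipper GILZ, was 13.26, 12.33 and 11.98 in Tac.Mtx.F, against 11.14, 11.20, 11.22 and 11.90 in NoRx.F. Animals 21 and 53 came within 0.1 of each other at the edge of the groups. IER2 and the RNA-binding ZFP36L2 differed by 1.04 ± 0.30 and 1.07 ± 0.29, and the zinc finger gene KLF6, whose groups overlapped, by 0.96 ± 0.30. KLF6 was not called without any 1 of animals 19, 20, 50, 51 and 52, nor with the mean of the probe sets.

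The 9 risers of this list were also set against healthy controls. In the comparisons of Tac.Mtx.F and of NoRx.F with Healthy.Control, which share their controls, 14.1% and 35.4% of genes passed (10.7% and 20.0% higher, 3.41% and 15.4% lower). Of the 27 immediate early genes, 7 were higher and 2 lower in Tac.Mtx.F, and 1 was higher and 11 were lower in NoRx.F. FOS was 3.85 higher in Tac.Mtx.F than in healthy controls (adjusted p 0.00813 in limma) and its difference in NoRx.F was -1.22 (adjusted p 0.347). JUNB differed by 0.93 in Tac.Mtx.F (adjusted p 0.0468) and by -1.55 in NoRx.F (adjusted p 2.93e-05). CD69 likewise passed in both, with 1.08 in Tac.Mtx.F (adjusted p 0.0472) and -1.02 in NoRx.F (adjusted p 0.0192). RGS1, not on the list, differed by 1.73 in Tac.Mtx.F (adjusted p 0.019) and by -1.21 in NoRx.F (adjusted p 0.0438). For TSC22D3 the value was -0.26 in Tac.Mtx.F (adjusted p 0.372) and -1.41 in NoRx.F (adjusted p 2.11e-10), and for ZFP36L2 -0.16 (adjusted p 0.685) and -1.24 (adjusted p 4.58e-07). In the same order DUSP1 gave 2.00 (adjusted p 0.019) and -1.20 (adjusted p 0.091), and IER2 0.68 (adjusted p 0.0293) and -0.36 (adjusted p 0.176). GADD45B gave 0.68 (adjusted p 0.191) and -0.96 (adjusted p 0.013), and KLF6 0.05 (adjusted p 0.914) and -0.91 (adjusted p 0.000222). ACKR1 differed from healthy controls by -2.07 in Tac.Mtx.F (adjusted p 0.000144) and by 0.53 in NoRx.F (adjusted p 0.235).

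Within each Tac.Mtx animal FOS, RGS1 and DUSP1 were highest in the final sample. Across animals this did not hold for RGS1. In animal 19 it was 11.43 on D30, above the final samples of animals 20 and 21 (10.99 and 10.80). FOS gave 7.94, 7.29 and 8.97 on D14 in animals 19, 20 and 21, 10.09 and 6.33 on D30 in animals 19 and 20, and 13.29, 12.58 and 11.19 in the final samples. In each animal the final sample was the highest. RGS1 gave 8.17, 9.90 and 9.36 on D14 and 11.43 and 9.40 on D30, and DUSP1 10.70, 9.82 and 9.92 on D14 and 10.82 and 9.46 on D30. ACKR1 gave 7.45, 6.74 and 6.76 on D14 and 5.97 and 7.30 on D30, so that its lowest value in each animal was also the final one. These values over time are a description, with no test.

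Across all groups of the series the FOS mean was 12.35 ± 1.07 (SD) in Tac.Mtx.F, ahead of Bela.Siro.F with 11.80 (10.24 and 13.37), Siro.F with 10.07 ± 1.76, Bela.Siro.D30 with 9.70 ± 3.01 and Bela.F with 9.16 ± 1.51. NoRx.F averaged 7.27 ± 0.49, and FR104.D14 was the lowest at 4.85 ± 0.80. The Tac.Mtx.F arrays overlapped those of Bela.Siro.F, Bela.Siro.D30 and Siro.F, and lay above those of Bela.F. For JUNB the mean was 9.65 ± 0.39 in Tac.Mtx.F and 9.77 in Bela.Siro.F (8.86 and 10.67), while NoRx.F had the lowest mean of all 16 groups at 7.17 ± 0.37, next to FR104.D14 at 7.30 ± 0.18.

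**Figure D2:**
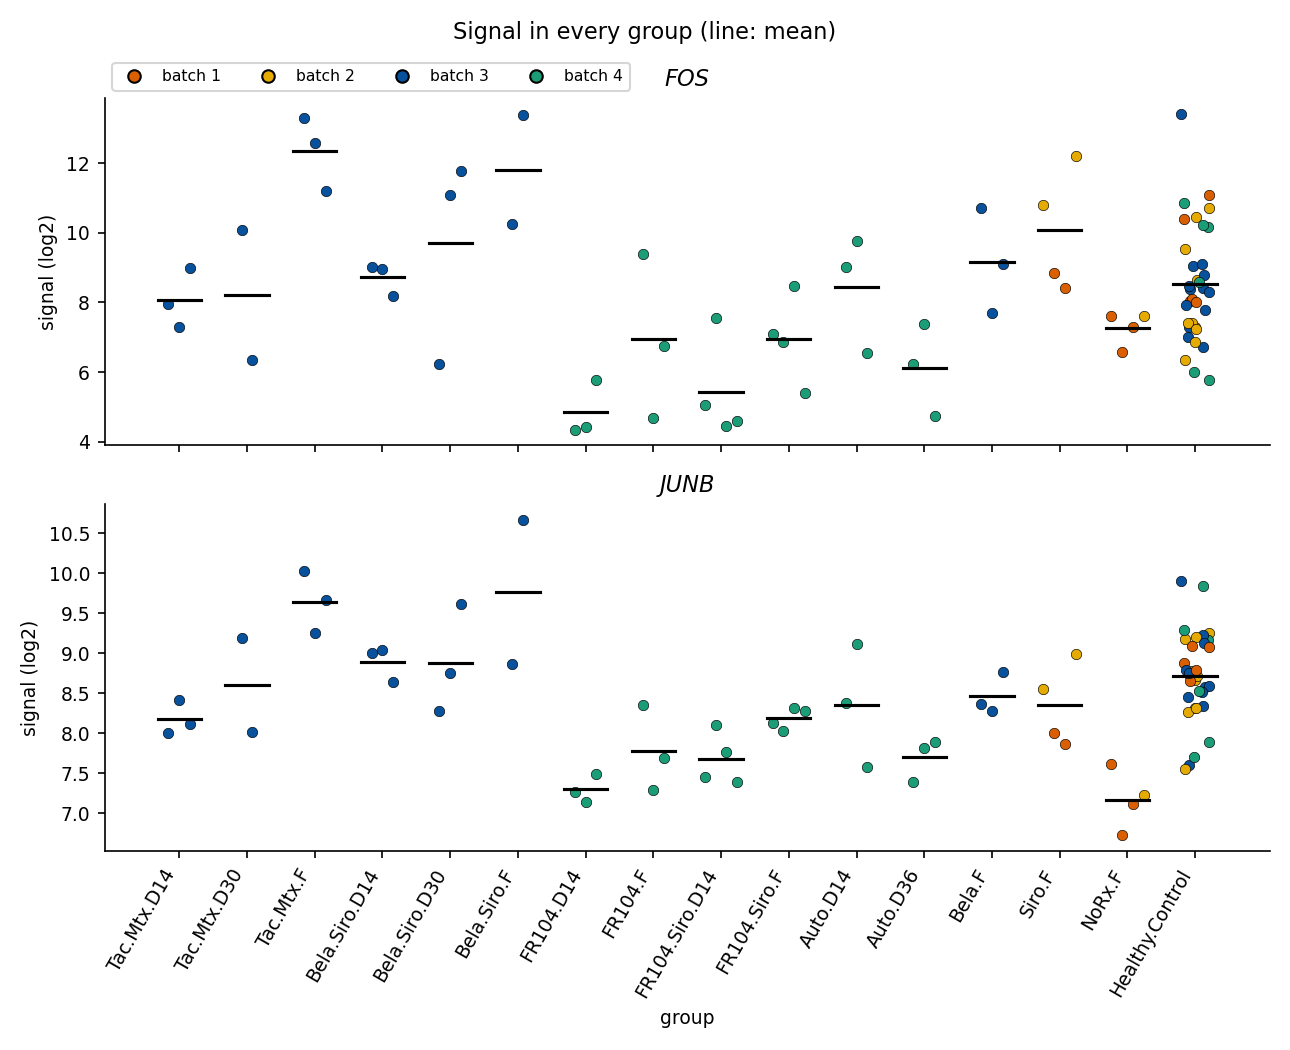
Array signal (log2) of FOS and JUNB in all 16 groups, coloured by batch label, with lines at the group means. Tac.Mtx.F and Bela.Siro.F are at the top for both genes and NoRx.F has the lowest JUNB mean; the 3 Tac.Mtx.F arrays are of batch 3 and the NoRx.F arrays of batches 1 and 2.

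Over the 47 transplant arrays the genes whose signal followed FOS most closely were DUSP1 (Pearson r 0.943), JUNB (0.839), CD69 (0.787), IER2 (0.764) and RGS1 (0.736). The likest of JUNB were DUSP1 (0.849), FOS, CD69 (0.831), RGS1 (0.81) and ENPEP (0.791). For RGS1 they were CD69 (0.851), PMAIP1 (0.822), JUNB, NR4A2 (0.775) and CSRNP1 (0.768), and for ACKR1 they were ZNF652 (0.736), RAB11B, ZNF654, ERICH3 and OTUD6A (0.699). These coefficients describe arrays that share animals, batches and groups.

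Apart from FOS, DUSP1, RGS1 and JUNB, the 12 largest rises were in genes of several functions. PTPN13, a large tyrosine phosphatase, had a signal of 8.33, 8.23 and 7.27 in Tac.Mtx.F, against 4.72, 4.30, 4.01 and 4.98 in NoRx.F, and 6.99 to 8.84 in healthy controls. The Tac.Mtx.F arrays lay within the healthy range and the NoRx.F arrays far below it. PTPN13 differed by 3.42 ± 0.52 (10.7-fold, adjusted p 1.01e-05 in limma). MATN2, an extracellular matrix protein of the matrilin family, gave 5.15, 6.72 and 6.07 in Tac.Mtx.F, against 3.58, 3.42, 2.94 and 3.03 in NoRx.F. Its healthy median was 3.91, so here the Tac.Mtx.F arrays were the ones away from healthy controls (1.97, adjusted p 0.00459), and the log2 difference from NoRx.F was 2.74 ± 0.67 (adjusted p 0.00622 in limma).

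SOCS2, an inhibitor of JAK-STAT signalling that cytokines induce, gave 7.20, 8.50 and 8.52 in Tac.Mtx.F, against 5.47, 5.20, 4.88 and 6.87 in NoRx.F. Animal 53 was the closest of the NoRx.F arrays. The log2 difference was 2.43 ± 0.77 (adjusted p 0.0403 in limma). Its call was lost without any 1 of NoRx.F animals 50, 51 and 52 or Tac.Mtx.F animals 20 and 21, and with the animal as a block. The call was also lost with the compared groups and healthy controls alone. It was lost too where probe sets were averaged, although SOCS2 has 1 probe set.

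The metalloprotease ADAM12 differed by 2.85 ± 0.68, the protein phosphatase 2A subunit PPP2R2B by 2.82 ± 0.74, the T cell survival cytokine IL7 by 2.62 ± 0.69, JAKMIP2 by 2.62 ± 0.72 and the Rac regulator CHN1 by 2.53 ± 0.70 (adjusted p 0.00489 to 0.0148 in limma). A dimmer probe set of PPP2R2B gave 0.14, and 2 dimmer ones of IL7 gave 0.02 and -0.17. CHN1 was uneven, with 6.31, 9.06 and 7.79 in Tac.Mtx.F, against 4.75 to 5.45 in NoRx.F, and was not called without animal 20. JAKMIP2, IL7 and PPP2R2B were not called without animal 19.

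The genes with the smallest p-values are given next; these 6 were singled out after their values were seen. JAZF1, a transcriptional regulator, gave 10.06, 9.40 and 9.92 in Tac.Mtx.F, against 7.72, 7.21, 6.78 and 8.32 in NoRx.F (log2 difference 2.26 ± 0.27, adjusted p 6.31e-08 in limma). RUNX1, a transcription factor of blood cell development, gave 9.55, 9.45 and 9.43 in Tac.Mtx.F, against 7.92, 7.66, 7.53 and 8.35 in NoRx.F (1.61 ± 0.21, adjusted p 2.58e-07). The RUNX1 arrays of Tac.Mtx.F lay close together near the healthy median of 9.37, while for JAZF1 animal 19 was above the highest healthy control and animals 20 and 21 were within the healthy range. TGFBR1, a receptor for TGF-beta, differed by 1.42 ± 0.21, TSC22D1 by 1.70 ± 0.24, the centriole gene CEP120 by 1.40 ± 0.19 and the endoplasmic reticulum reductase DNAJC10 by 0.82 ± 0.10. All 6 were higher in Tac.Mtx.F and passed under each of the 16 alternatives, but dimmer probe sets gave other sizes. The 6 others of RUNX1 gave -0.23 to 1.17, that of JAZF1 0.54, that of TSC22D1 -0.05, those of TGFBR1 0.28 and 0.27, those of CEP120 0.73 and 0.27, and that of DNAJC10 0.96. With the mean of the probe sets the log2 difference of RUNX1 was 0.31, and the log2 difference of JAZF1 was 1.41.

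Of the 29 gene lists, the 2 of cell division had the most falls. Of 16 mitosis genes 10 fell and none rose (list median -0.973), and of 21 DNA replication genes 9 fell and none rose (list median -0.864). Over all genes tested, 2.24% fell and 4.70% rose. In Tac.Mtx.F against healthy controls 9 of the 16 and 14 of the 21 were higher (background 10.7%), and in NoRx.F against healthy controls 15 and 18 were (background 20.0%).

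CCNB2, a mitotic cyclin, had a signal of 5.64, 8.37 and 8.49 in Tac.Mtx.F, against 11.15, 9.86, 10.89 and 9.95 in NoRx.F, and 4.71 to 6.69 in healthy controls. Animal 19 was within the healthy range, animals 20 and 21 above it, and all NoRx.F arrays higher still. The log2 difference was -3.0 ± 0.59 (8.02-fold lower in Tac.Mtx.F, adjusted p 0.000612 in limma), and it passed under each of the 16 alternatives. MKI67, a proliferation marker, gave 6.58, 8.61 and 8.47 in Tac.Mtx.F, against 10.32, 9.38, 10.06 and 9.49 in NoRx.F (-1.94 ± 0.46, adjusted p 0.00476). The 2 dimmer probe sets of MKI67 gave -0.13 and -0.43.

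The remaining falls of these lists were smaller than that of CCNB2. CDKN3, a phosphatase of cyclin-dependent kinases, differed by -1.97 ± 0.46, the DNA topoisomerase TOP2A by -1.96 ± 0.65 and the replicative helicase subunits MCM4, MCM3, MCM2 and MCM5 by -1.87 ± 0.38, -1.70 ± 0.34, -1.55 ± 0.36 and -1.44 ± 0.31. The mitotic cyclin CCNB1 differed by -1.72 ± 0.38, and the centromere proteins CENPF and CENPA by -1.43 ± 0.33 and -1.33 ± 0.27. The smallest were those of CCNA2, AURKA, CDCA8, PCNA, CDC45, GINS3 and CCNE1, at -0.86 to -1.04. TOP2A lost its call under 9 of the 16 alternatives and was at -1.26 without animal 19 (adjusted p 0.329 in limma). MKI67 (-1.29, adjusted p 0.117), CDKN3, MCM4 and MCM2 were also not called without animal 19. Dimmer probe sets gave -0.93 for TOP2A, -0.94 for CCNB1, -0.79 for CENPF, -0.18 for CDKN3, -0.08 for MCM5 and -0.54 to -0.23 for MCM4. PBK, a mitotic kinase, went the other way at 0.93 ± 0.31 without passing (adjusted p 0.0532 in limma), and the count of rises was 1 without NoRx.F animal 53.

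The Tac.Mtx animals differed among themselves in these genes. The mean signal of the DNA replication list was 7.0, 8.28 and 8.19 in Tac.Mtx.F, against 9.14, 8.28, 9.01 and 8.38 in NoRx.F, and 6.72 to 7.31 in healthy controls. Animal 19 lay within the healthy range, while animals 20 and 21 lay next to NoRx.F animals 51 and 53. The mitosis list gave 6.82, 7.98 and 7.80 in Tac.Mtx.F, against 9.02, 8.17, 8.93 and 8.36 in NoRx.F, with no overlap. Animal 19 was also the lowest on D14, with 6.87 for DNA replication, where animals 20 and 21 had 8.17 and 7.91. Without animal 19 the falls numbered 4 of 16 and 2 of 21; without NoRx.F animal 50 or 52 they numbered 6 and 4; and with each array set against the healthy controls of its own batch, 6 and 2. The 7 arrays alone gave 6 and 3, and the mean of the probe sets gave 5 in the mitosis list.

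**Figure D3:**
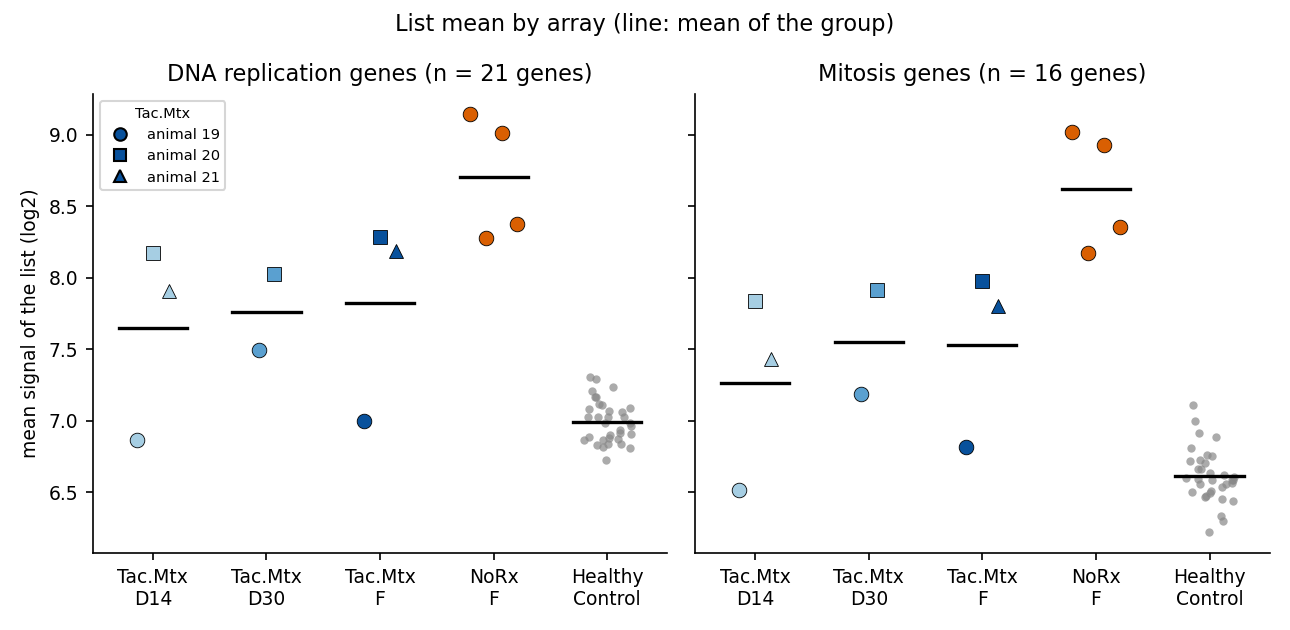
Mean signal (log2) of the DNA replication and mitosis lists per array in the Tac.Mtx animals at D14, D30 and the final sample, in NoRx.F and in healthy controls. Symbols mark the Tac.Mtx animals and lines are group means; Tac.Mtx.F animal 19 is at 7.0 and 6.82, within the healthy range, and animals 20 and 21 lie between healthy controls and the upper NoRx.F arrays.

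Genes of the pathways that the drugs act on were counted against the 4.70% of all genes that rose and the 2.24% that fell. Of 24 calcineurin and NFAT pathway genes tested, 2 rose (8.3%) and 1 fell (4.2%), with a list median of 0.110. STIM2, a calcium sensor of the endoplasmic reticulum, gave 10.10, 10.05 and 10.36 in Tac.Mtx.F, against 9.01, 8.96, 8.96 and 9.23 in NoRx.F (1.11 ± 0.22, adjusted p 0.000751 in limma). PPP3CC, a catalytic subunit of calcineurin, differed by 0.55 ± 0.17 (adjusted p 0.0431) and CSNK1A1, a kinase that returns NFAT to the cytoplasm, by -0.63 ± 0.20 (adjusted p 0.0463); PPP3CC was not called without any 1 of animals 19, 20, 21, 50 and 51, nor CSNK1A1 without any 1 of 19, 21, 50, 51 and 52. FKBP1A gave 4.40, 4.28 and 4.48 in Tac.Mtx.F, against 4.73, 4.04, 4.43 and 4.49 in NoRx.F, near the low end of the scale, with a difference of -0.03 ± 0.18 (adjusted p 0.942). NFATC1 differed by -0.05 ± 0.27 (adjusted p 0.943) and RCAN1, a calcineurin inhibitor that NFAT itself induces, by 0.25 ± 0.26 (adjusted p 0.639). PPP3CA was not analysed here.

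Of 21 NFAT-dependent cytokine and activation genes, 3 rose (14.3%) and none fell, with a median of 0.008. They were CD69, CD40LG, the helper signal to B cells (1.37 ± 0.35, adjusted p 0.00885 in limma), and IL2, the T cell growth cytokine (0.55 ± 0.15, adjusted p 0.0133). With the mean of the probe sets 1 rose, and CD40LG and IL2 were not called. IL2 had a signal of 11.63, 11.68 and 11.93 in Tac.Mtx.F, against 11.11, 11.10, 11.22 and 11.27 in NoRx.F, while its other 2 probe sets both gave 0.09, and it was not called without animal 21. IL2RA, the high-affinity receptor subunit, gave 5.60, 5.94 and 7.42 in Tac.Mtx.F, against 8.12, 6.95, 7.55 and 7.05 in NoRx.F. Its animals 19 and 20 were below all NoRx.F arrays and animal 21 among them, and the difference of -1.09 ± 0.36 had an adjusted p of 0.0554 in limma. IL2RA passed without any 1 of animals 21, 51 and 53, with the animal as a block and without the batch term. It also passed with quantile normalization repeated and with the compared groups and healthy controls alone. IFNG, with 8.48, 7.86 and 5.05 in Tac.Mtx.F, against 5.18 to 6.82 in NoRx.F, differed by 0.92 ± 0.72 (adjusted p 0.495).

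Of 21 folate and purine synthesis genes, 1 fell (4.8%) and none rose, with a median of -0.064; without NoRx.F animal 53 the falls numbered 3, and without Tac.Mtx.F animal 21 they numbered 2. TYMS, the thymidylate synthase that folate supplies, gave 4.96, 8.17 and 7.54 in Tac.Mtx.F, against 9.58, 7.99, 9.89 and 8.24 in NoRx.F. Animal 19 was near the healthy median of 4.90, and animal 20 overlapped NoRx.F. The log2 difference of -2.07 ± 0.68 had an adjusted p of 0.0471 in limma, and its call was lost without animal 19, without NoRx.F animal 50 or 52 and under 4 other alternatives. GGH, which removes glutamates from folates, differed by 1.14 ± 0.38 (adjusted p 0.0532).

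Among inhibitory receptors and exhaustion genes, 3 of 13 fell and 1 rose (2.24% and 4.70% of all genes tested did), with a median of 0.334. LAG3, an inhibitory receptor for MHC class II, gave 8.77, 9.44 and 8.73 in Tac.Mtx.F, against 10.73, 11.44, 11.47 and 10.75 in NoRx.F, and 6.48 to 7.84 in healthy controls. The 3 groups did not overlap, and Tac.Mtx.F lay between the others. LAG3 differed by -2.12 ± 0.46 (4.34-fold lower in Tac.Mtx.F, adjusted p 0.00172 in limma), and it passed under each of the 16 alternatives. ENTPD1, the ectonucleotidase CD39, differed by -1.67 ± 0.44 (adjusted p 0.0112), and HAVCR2, which encodes TIM-3, by -1.30 ± 0.32 (adjusted p 0.00701). TOX, a transcription factor of exhausted T cells, rose by 1.07 ± 0.23 (adjusted p 0.00163), while CTLA4 differed by -0.35 ± 0.50 (adjusted p 0.74). ENTPD1 was not called without animal 19, nor HAVCR2 without animal 53.

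Naive and quiescent T cell genes had 3 of 12 higher and none lower (4.70% and 2.24% of all genes tested were), with a median of 0.407. TCF7, which encodes the stemness factor TCF-1 of T cells, gave 12.53, 12.57 and 13.14 in Tac.Mtx.F, against 11.20, 11.43, 11.36 and 11.18 in NoRx.F (1.45 ± 0.26, adjusted p 0.000177 in limma). The Tac.Mtx.F arrays lay within the healthy range of 12.42 to 13.42 and the NoRx.F arrays below it. TAGAP, a GTPase activating protein of T cells, differed by 2.14 ± 0.35 and the transcriptional repressor ZBTB20 by 1.78 ± 0.31. Both were below healthy controls in NoRx.F (-2.95 and -2.75) and less so in Tac.Mtx.F (-0.80 and -0.96). The list was chosen with earlier results of these data known, so its count of 3 is a description and no independent support. CCR7, the lymph node homing receptor, gave 8.26, 9.35 and 10.04 in Tac.Mtx.F, against 8.10 to 8.85 in NoRx.F, and did not pass (0.78 ± 0.53, adjusted p 0.412). The members that passed were TCF7, TAGAP and ZBTB20 in each leave-one-out fit.

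Of 17 cytotoxic effector genes none passed (median -0.387). Granzyme B (GZMB) gave 13.68, 13.59 and 12.70 in Tac.Mtx.F, against 14.57, 14.59, 14.77 and 14.19 in NoRx.F, without overlap, and differed by -1.20 ± 0.61 (adjusted p 0.239 in limma). GZMB passed with the 7 arrays alone and against the healthy controls of the own batch. None of the 17 type I interferon response genes passed in the main fit (median -0.057), and IFI44 differed by 1.87 ± 0.64 (adjusted p 0.0613 in limma). IFI44 passed without animal 21 or 52, with the animal as a block and without the batch term. It also passed with the 7 arrays alone, with the compared groups and healthy controls alone, and against the healthy controls of the own batch. None of the 10 Th1 and effector CD8 regulators passed in the main fit. Among them, CXCR3 (-0.85 ± 0.32, adjusted p 0.0957 in limma) passed without the batch term and without animal 53. Of 10 Th17 genes 1 rose and 1 fell (4.70% and 2.24% of all genes tested did): IL17A (0.99 ± 0.22) and IL17F (-0.67 ± 0.18, not called without animal 19). The IL17A signals were low, 4.28, 5.16 and 4.41 in Tac.Mtx.F, against 3.46 to 3.70 in NoRx.F, and its second probe set gave -0.09. The 2 other probe sets of IL17F, dimmer on average, gave -1.90 and -1.83. Of 13 regulatory T cell genes ENTPD1 alone fell (none without animal 19), and FOXP3, the lineage factor, differed by 0.06 ± 0.22 (adjusted p 0.914). The FOXP3 signals were low, 4.64 to 5.13 in Tac.Mtx.F and 4.66 to 5.18 in NoRx.F. They lay near 4.65, the 40th percentile of all signals, so a difference could be missed.

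Feedback genes of cytokine signalling had 3 of 12 higher (4.70% of all genes tested were): SOCS2, CISH and PIM1, with a median of 0.398. The count was 1 without NoRx.F animal 50, 51 or 52 or Tac.Mtx.F animal 20 or 21, and 0 with the mean of the probe sets. SOCS2 and PIM1 have 1 probe set each, so their own values were the same there. CISH, a STAT5-induced inhibitor, gave 9.04, 9.79 and 9.31 in Tac.Mtx.F, against 7.16, 7.01, 7.10 and 8.89 in NoRx.F (1.82 ± 0.47, adjusted p 0.00905 in limma), with animal 53 at the edge of Tac.Mtx.F. Its second probe set, with a mean over all arrays of 8.64 against 9.25, gave 0.39. Glucocorticoid-induced genes had 5 of 15 higher with a median of 1.023: DUSP1, TSC22D3, ZFP36L2, TXNIP and IL1R2, of which the first 3 are also on the immediate early list. TXNIP, which restrains glucose uptake, differed by 1.57 ± 0.25 and its 4 other probe sets by 1.01 to 1.70. IL1R2 differed by 1.19 ± 0.27, but its dimmer probe sets by -0.22, 0.22 and -0.05. FKBP5, a standard glucocorticoid target, differed by -0.52 ± 0.33 (adjusted p 0.372), and the count was 2 without animal 19 and 3 with the mean of the probe sets. NF-kB feedback genes had 2 of 14 higher, TRAF1 (0.65 ± 0.20) and BIRC3 (1.25 ± 0.41), but 0 without any 1 of animals 20, 50 and 52 and 1 without animal 21 or 51. The other probe sets of BIRC3 gave 2.1 and -0.03. The receptor-proximal signalling genes had 1 of 14 higher, the Ras activator RASGRP1 (0.74 ± 0.14, adjusted p 0.00023).

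Of 16 glycolysis genes 3 fell (2.24% of all genes tested did): the enzymes ENO1 (-0.58 ± 0.11) and LDHA (-0.62 ± 0.14) and the lactate transporter SLC16A3 (-0.81 ± 0.22). With the mean of the probe sets 1 fell, and ENO1 and SLC16A3 were not called. SLC16A3 was also not called without animal 19, and its other probe sets gave -0.37 and 0.01. Of 15 oxidative phosphorylation genes 2 fell, the ATP synthase inhibitor ATP5IF1 (-0.94 ± 0.15, adjusted p 2.99e-05 in limma) and the subunit ATP5MC3 (-0.54 ± 0.13), and all 15 differences were negative (median -0.294). With quantile normalization repeated 6 of the 15 fell, without the batch term 5, without NoRx.F animal 53 4 and without Tac.Mtx.F animal 19 1. Among 14 heat shock and chaperone genes HSP90B1 alone rose (4.70% of all genes tested did), by 0.56 ± 0.15, and it was not called without animal 19 or 50.

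**Figure D4:**
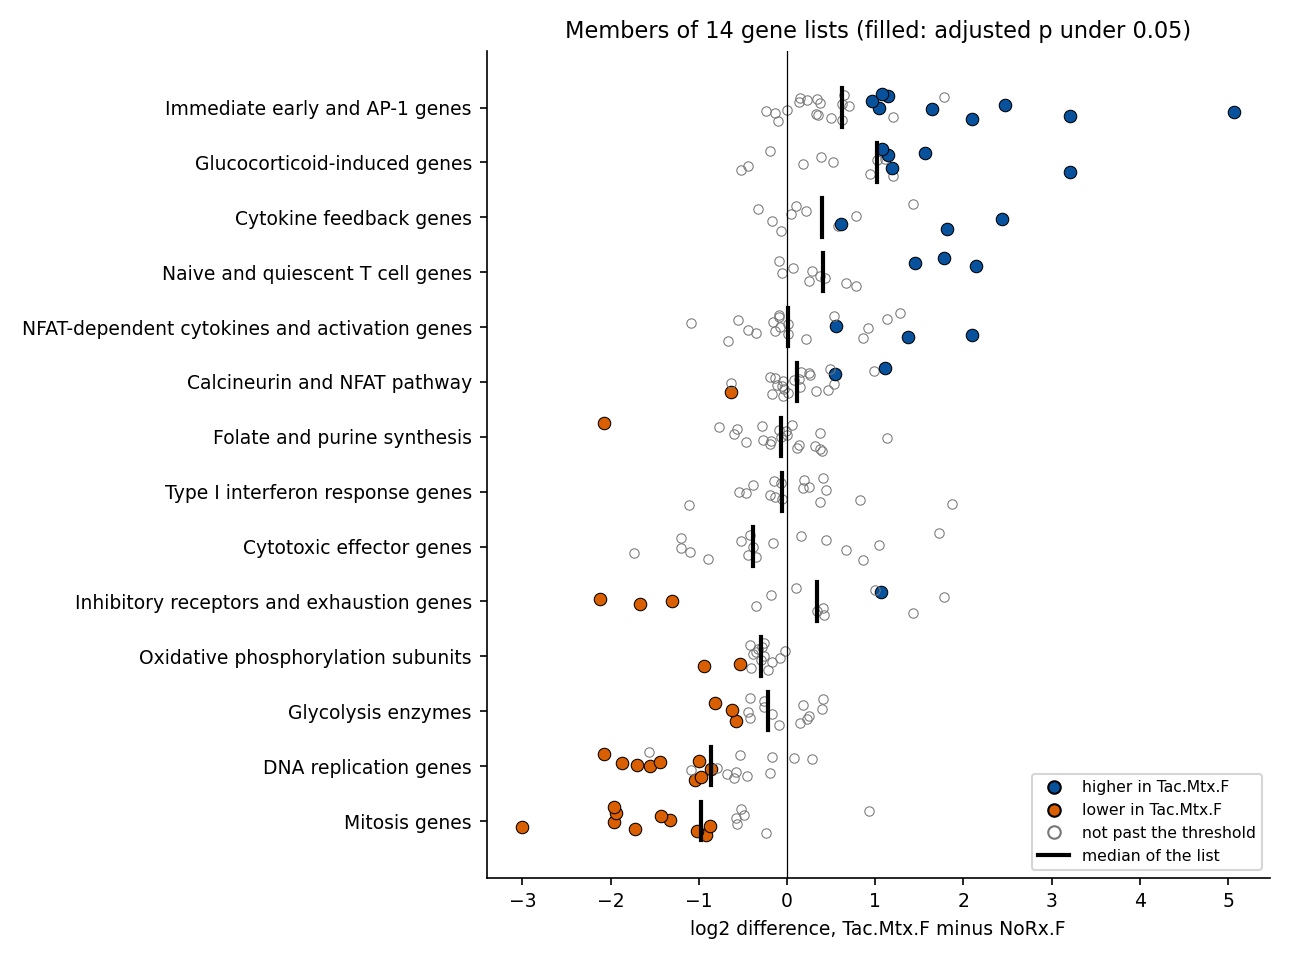
Log2 difference, Tac.Mtx.F minus NoRx.F, of each tested member of 14 gene lists; filled points passed an adjusted p of 0.05 and the black bars are list medians. The immediate early and glucocorticoid-induced lists lie to the right (medians 0.626 and 1.023) and the mitosis and DNA replication lists to the left (medians -0.973 and -0.864).

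Markers of other cells were examined because a sorted T cell sample can hold RNA of other types; in bulk RNA, fewer cells of a type and less RNA per cell cannot be told apart. None of 16 monocyte and neutrophil markers passed, and the list mean per array overlapped, 5.64 to 6.81 in Tac.Mtx.F and 5.82 to 7.10 in NoRx.F. S100A8, an abundant protein of neutrophils and monocytes, gave 8.85, 11.22 and 10.96 in Tac.Mtx.F, against 12.92, 9.02, 13.42 and 10.45 in NoRx.F, and S100A9 gave 8.70, 10.52 and 10.12, against 12.20, 8.39, 12.98 and 9.72. CD68, a lysosomal protein of macrophages, went the other way, with 7.06, 7.90 and 6.82 in Tac.Mtx.F, against 6.23, 5.93, 5.07 and 5.67 in NoRx.F, without overlap. Its difference of 1.54 ± 0.62 (adjusted p 0.119 in limma) passed without the batch term, with the 7 arrays alone and against the healthy controls of the own batch, and its other probe set gave -0.41. NoRx.F animals 50 and 52, which had the highest division genes, also had the highest S100A8 and S100A9, and Tac.Mtx.F animal 19 had the lower values of its group; the part of such cells in the results was not tested. The platelet list (10 genes, none past the threshold) stood out in Tac.Mtx.F animal 20, with a mean of 8.65 against 6.59 and 6.22 in animals 19 and 21, and 6.73 to 7.69 in NoRx.F.

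None of 9 NK cell markers and none of 6 T cell identity markers passed. KLRF1, an NK receptor, gave 10.53, 9.59 and 8.83 in Tac.Mtx.F, against 6.15, 5.75, 5.74 and 9.01 in NoRx.F (2.96 ± 1.06, adjusted p 0.0751 in limma), and passed without animal 53, without the batch term, with the 7 arrays alone and with the compared groups and healthy controls alone. KIT, a cytokine receptor, went the other way, with 3.88, 3.41 and 3.55 in Tac.Mtx.F, against 5.52, 5.42, 4.73 and 4.64 in NoRx.F, without overlap. Its difference of -1.47 ± 0.65 (adjusted p 0.169) passed with the 7 arrays alone and against the healthy controls of the own batch. CD8B gave 10.60, 10.34 and 10.92 in Tac.Mtx.F, against 11.24, 11.77, 11.22 and 11.38 in NoRx.F (-0.80 ± 0.40, adjusted p 0.235), and CD4 differed by 0.36 ± 0.27 (adjusted p 0.465). CD3D, CD3E and CD247 were not analysed here, so the sort marker itself was not checked. Of 10 B cell and plasma cell markers MZB1, a plasma cell chaperone, fell by 1.14 ± 0.29 on the log2 scale, and of 8 dendritic cell markers IRF8, a transcription factor that activated T cells also express, differed by -1.81 ± 0.42 (adjusted p 0.00429; not called without animal 21). Of 14 chemokine receptors ACKR1 alone passed.

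The other large falls were SERPINE2, a serine protease inhibitor (-2.35 ± 0.70, with 4 probe sets between -2.0 and -2.43), GPATCH2 (-2.01 ± 0.35), GSAP, the gamma-secretase activating protein (-1.94 ± 0.48), and DTX1, a ubiquitin ligase of Notch signalling (-1.88 ± 0.47). The SERPINE2 signal was 6.36, 6.64 and 7.37 in Tac.Mtx.F, against 8.27, 9.37, 8.82 and 9.90 in NoRx.F, and the call was lost without any 1 of animals 19, 20, 51 and 53 and with the mean of the probe sets. The probe sets disagreed for GPATCH2, whose 4 others ranged from -0.17 to 0.61, and for DTX1, whose other one gave 1.25; neither was called with the mean of the probe sets.

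**Figure D5:**
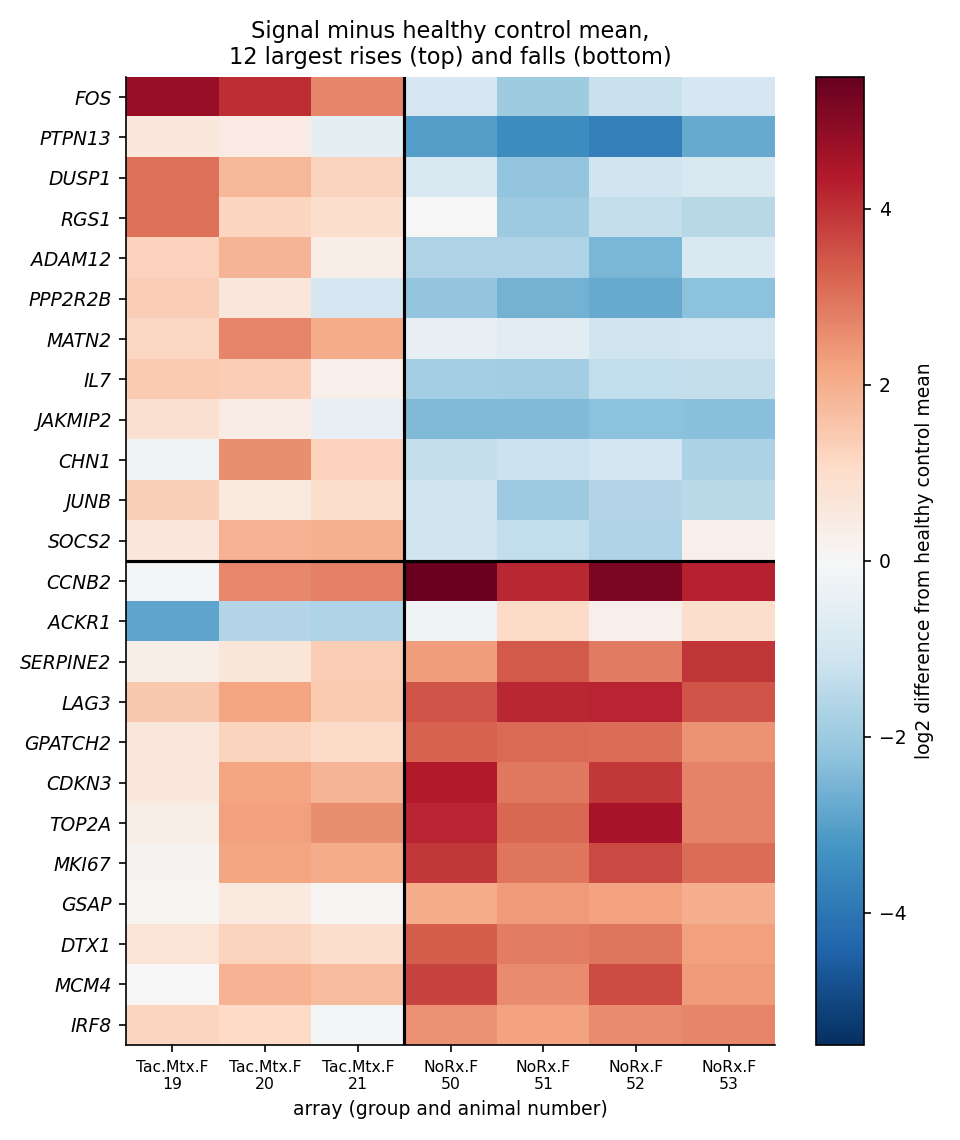
Signal of the 12 largest rises and 12 largest falls in each of the 7 arrays, minus the healthy control mean (log2; red above and blue below it), with Tac.Mtx.F arrays on the left. PTPN13, PPP2R2B and JAKMIP2 are near the healthy level in Tac.Mtx.F and below it in NoRx.F, FOS and MATN2 are above it in Tac.Mtx.F, and the division genes are highest in NoRx.F and near it in Tac.Mtx.F animal 19.

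Whether other prophylaxis gave a different level was tested for the final samples of Bela.F, which are of batch 3 like Tac.Mtx.F, and of Siro.F, which are of batches 1 and 2. In Tac.Mtx.F against Bela.F 40 genes passed (0.339%), 20 higher and 20 lower (0.169% each), and in Tac.Mtx.F against Siro.F 23 (0.195%), 17 higher (0.144%) and 6 lower (0.0508%). FOS differed by 3.19 ± 1.32 from Bela.F (adjusted p 0.413 in limma) and by 2.28 ± 1.38 from Siro.F (adjusted p 0.513). JUNB differed by 1.18 ± 0.42 and 1.29 ± 0.44 (adjusted p 0.287 and 0.193), and ACKR1 by -1.31 ± 0.47 and -1.59 ± 0.49 (adjusted p 0.285 and 0.13). None of the 4 marker genes thus passed against either group, nor did any member of the immediate early, mitosis or DNA replication lists.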

How the data were processed

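Sorted CD3 T cells of 81 samples were measured on Affymetrix arrays. Signals were deposited on a log2 scale; per the submitters' processing notes, RMA in the affy package was used (versions not given), and how the batch adjustment was made is not given in the sources used here. Of 52865 probe sets, 24969 have 1 gene symbol in the platform's gene table, 361 have several and 27535 are not in it. Each of 14132 genes was represented by its probe set of highest mean, and 11806 were tested, those exceeding 4.65, the 40th percentile, in 2 or more arrays. A linear model in limma 3.58.1 (R 4.3.3) was fitted to the 81 arrays with terms for group and batch label, leaving 62 residual degrees of freedom, with a mean-variance trend in eBayes; it was tested on simulated data. Tests are 2-sided, p-values are Benjamini-Hochberg adjusted over all genes tested, and errors beside differences are SE.

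The arrays, the 29 gene lists and the tests were chosen with earlier results of these data known. Genes were named by a rule: the 4 markers, a fixed panel, the 12 largest rises and falls among genes called without overlap (LOC symbols passed over), and up to 4 called members of each list by smallest adjusted p, or its ends where none was called. The 6 genes with the smallest p and the remaining called immediate early genes were added after their values were seen, as were the list members quoted as not past the threshold. The alternatives left out the batch label, or used the animal as a random block, all genes unfiltered, averaging a gene's probe sets, repeated quantile normalization, the compared groups with healthy controls only, the 7 arrays only, the actin measure as a covariate, arrays minus the healthy controls of their own batch, and leaving out each array. Tac.Mtx.F and NoRx.F share no animal, so nothing pairs them. No sequences are printed, since no sequence table was used here.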

Additional observations from a re-analysis of the deposited data

Results flagged for a closer look

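In NoRx.F, 123 values (named genes and list means) were examined for an array far from the other 3, and 6 were found. Chance alone gives about 1 in 20, so the 6 are about as many as chance would give. The values are not independent, since CISH, for example, is also a member of the cytokine feedback list. In animal 53, the only NoRx.F array of batch 2, 5 of the 6 stood out as high: CISH at 8.89 (others 7.01 to 7.16), TSC22D3 at 11.9 (11.14 to 11.22), KLRF1 at 9.01 (5.74 to 6.15), the mean of the cytokine feedback list at 6.99 (6.58 to 6.62) and that of the Th1 and effector CD8 list at 7.93 (7.64 to 7.66). Batch 2 and the animal cannot be told apart for these values. In animal 51 FOXP3 was at 5.18 (others 4.66 to 4.73).

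For 10 named genes the level in Tac.Mtx.F differed from that in Bela.F or Siro.F in the same fit, which is the test of whether their differences from NoRx.F differ. Against Bela.F, of the same batch, LAG3 was lower (-2.01 ± 0.43, adjusted p 0.0106 in limma; mean 8.98 in Tac.Mtx.F and 10.99 in Bela.F, n = 3 each), as were SERPINE2 (-2.84 ± 0.65, adjusted p 0.0212), GPATCH2 (-1.58 ± 0.33, adjusted p 0.0083), HAVCR2 (-1.33 ± 0.30, adjusted p 0.0212) and MZB1 (-1.25 ± 0.27, adjusted p 0.0108). MATN2 (2.69 ± 0.63, adjusted p 0.0263) and IL17A (0.86 ± 0.20, adjusted p 0.0275) were higher. LAG3 and HAVCR2 had nearly the same level in Bela.F (10.99 and 6.60) and in NoRx.F (11.10 and 6.56). Against Siro.F, NFATC1 was lower in Tac.Mtx.F (-1.21 ± 0.27, adjusted p 0.02; mean 9.16 in Tac.Mtx.F and 10.36 in Siro.F), and JAZF1 (1.55 ± 0.26, adjusted p 0.000805) and RUNX1 (0.92 ± 0.20, adjusted p 0.02) were higher.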

How the results depend on the processing

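For Tac.Mtx.F against NoRx.F the count of 820 genes became 1793 without the batch term and 432 to 1180 when 1 array was left out, lowest without Tac.Mtx.F animal 19 and highest without NoRx.F animal 53. The sign of all 820 held under 15 of the 16 alternatives and of 814 with the mean of the probe sets, while 395 of the 820 passed again without animal 19, 465 against the healthy controls of the own batch and 469 with the mean of the probe sets. With the animal as a random replicate block (correlation 0.194) 863 genes passed, and of the 70 named genes called 68 were called again, all but CSNK1A1 and SOCS2; no paired analysis was possible because the groups share no animal. Leaving out 1 array gave 398 to 1357 genes for Tac.Mtx.F against Healthy.Control (lowest without animal 20, and 801 without animal 21) and 3590 to 3926 for NoRx.F against Healthy.Control. For Tac.Mtx.F against Bela.F it gave 6 to 108 genes (without Bela.F animals 47 and 57), and the compared groups with healthy controls gave 98. For Tac.Mtx.F against Siro.F it gave 5 to 32 (lowest without Siro.F animal 18), no batch term 303, the replicate block 41 and the compared groups with healthy controls 60. No named gene changed sign among those called. With 3 and 4 arrays, an adjustment already in the values and dimmer probe sets that disagree, the sizes of single differences are uncertain, and a gene that did not pass is not shown to be alike in both groups.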
